A study of Rattus norvegicus with 12 samples.

Results

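The miR-30 family was followed in parotid acinar cells of the rat, the serous secretory cells of a major salivary gland, from late gestation to about the age of weaning. The members were the assays named miR-30a, miR-30b, miR-30c, miR-30d and miR-30e, guide strands only, and 5 of the 375 miRNA assays of the panel met this rule. Each member had 1 assay, under its mouse name, and the panel held 0 assays for the passenger strands of the family.

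miRNAs were quantified by qRT-PCR, with LNA primers, in total RNA of acinar cells cut from parotid sections by laser capture microdissection. The 12 samples came from Sprague Dawley rats whose genotype is given as albino, with no treatment named, 3 at each of 4 ages: embryonic day 20 (E20) and postnatal days 5 (P5), 15 (P15) and 25 (P25). Within an age, the 3 samples were from different litters, and captures were combined only within a sample. Each sample was run on 1 array from 1 ng of RNA.

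A miRNA is a short RNA that guides the silencing complex to mRNAs matching its seed, the bases near its 5′ end, and lowers their translation and stability. The miR-30 guide strands carry the same seed and are therefore expected to share many target mRNAs. The family is known for high levels in many epithelia, for repressing the transcription factor Snai1, which drives epithelial cells toward a mesenchymal state, and, in the case of miR-30a, for repressing the autophagy gene encoding Beclin.

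The mature rat sequences show what the family shares and where its members part. They are RefSeq records on the GRCr8 assembly, printed 5′ to 3′, with capitals for the seed (bases 2 to 8). Mature sequences of 3 of the 5 members were matched, and miR-384-5p, which carries the same seed and has an assay on the panel, is shown beside them.
miR-30a-5p: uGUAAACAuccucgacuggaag
miR-30c-5p: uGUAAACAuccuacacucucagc
miR-30e-5p: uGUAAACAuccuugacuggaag
miR-384-5p: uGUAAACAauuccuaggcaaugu

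The seed GUAAACA was found in 4 of the 693 mature miRNA names of that table, the 4 shown. Counted from the 5′ end, miR-30a-5p and miR-30e-5p were identical at 21 of 22 bases and differed by C13U, with the base of miR-30a first. miR-30a-5p and miR-30c-5p were identical at 17 of 22 bases, with the 5 differences C13A, G14C, G18C, G19U and A20C. miR-384-5p matched miR-30a-5p at 12 of 22 bases, with the first difference, U9A, right after the seed. How far an assay for 1 member also amplifies another was not tested, and this bears on miR-30a and miR-30e, which were the closest of the members compared here. It bears as well on miR-30b and miR-30d, whose sequences were not compared, so closer pairs may exist.

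In GRCr8 the family lies at 3 places. Mir30c1 (chr5:139634455-139634543) and Mir30e (chr5:139637450-139637541) are 2907 bases apart, both inside the span of Nfyc, a protein-coding gene for a subunit of the NF-Y transcription factor. Mir30b (chr7:102021543-102021629) and Mir30d (chr7:102025345-102025426) are 3716 bases apart within the lncRNA gene LOC102551574. Mir30a (chr9:33233941-33234011), which lies in no annotated host gene, and Mir30c2 (chr9:33253682-33253765), which lies within the pseudogene Rbx1-ps1 and the lncRNA gene LOC134480562, are 19671 bases apart. The mature miR-30c sequence lies at chr5:139634505-139634527 on the minus strand and at chr9:33253695-33253717 on the plus strand, so 1 assay reads the products of both genes. The mature miR-30a sequence lies at chr9:33233946-33233967 on the plus strand and that of miR-30e at chr5:139637504-139637525 on the minus strand.

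The deposited values are threshold cycles (CT), the PCR cycle at which a well's signal crosses a threshold, so that each cycle less means about 2 times as much template. The number of the 375 assays with a CT ran from 179 to 307 per array and was 282 to 306 at E20 and 202 to 223 at P25. P15 replicate 1 had the fewest, 179, and the highest median CT, 34.8, and P5 replicate 1 had 224. The 120 miRNAs with a CT on every array, called the common miRNAs here, had a median CT of 30.0 ± 0.513 (SD, n = 3) at E20 that was 31.9 ± 0.335 (SD, n = 3) at P25. The 9 assays of 7 epithelial miRNAs were detected in every sample, and their summed level, on the log2 scale, was 6.93 to 8.35 at E20 and 8.10 to 9.07 at P25. Within that list miR-200c (mouse assay) went from a mean of 3.65 at E20 to 6.40 at P25, whereas miR-205 went from 6.75 to 4.52 and miR-203 from 0.29 to -1.84. Sums for other cell types are over the assays detected in a sample. The summed level of 3 mesenchymal miRNAs was 4.81 to 5.57 at E20 and 2.30 to 2.68 at P25, that of 4 striated muscle miRNAs 4.36 to 6.23 with 5 of 5 assays detected at E20 and 0.17 to 1.88 with 2 to 3 of 5 at P25, where miR-206 was not detected, and that of the smooth muscle and pericyte miRNAs miR-143 and miR-145 4.77 to 5.11 and 6.43 to 7.35. The 5 leukocyte miRNAs summed to 1.98 to 3.00 at E20, with 6 of 6 assays detected, and to 1.65 to 3.24 at P25, with 3 to 5. The 3 erythrocyte miRNAs were all detected at E20, where they summed to 0.88 to 2.70, while 1 P25 sample had none of them and the other P25 samples summed to -2.24 and 0.94. The 3 nerve miRNAs summed to 0.18 to 4.84 at E20, all detected, and to -0.10 to 3.78 at P25, with 1 to 3 detected, and endothelial miR-126 was at 2.56 to 3.93 and 2.71 to 4.88. The liver miRNA miR-122 had a CT in 1 E20 and 1 P25 sample and in none at P5 or P15. The part of these other cell types in the miR-30 values was not tested, and fewer cells of a type cannot be told apart from less RNA per cell in such samples.

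All 5 miR-30 assays gave a CT in 12 of 12 samples. The CT ran from 25.9 to 32.0 for miR-30c, from 26.6 to 32.0 for miR-30b, from 28.7 to 34.8 for miR-30d, from 29.5 to 33.9 for miR-30a and from 30.5 to 34.6 for miR-30e. No miR-30 well was imputed in any test, whereas 122 wells (5.30%) of the 192 assays tested were.

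miR-30b and miR-30c stood among the most strongly detected miRNAs of acinar cells at every age. Ranked by CT within its array, miR-30c held place 10 in the median over the 12 arrays, with a range from 4 to 33, and miR-30b place 16.5, with a range from 5 to 32. In percent of the assays detected on an array, miR-30c was between the first 1.79% and 18.4% and miR-30b between 2.24% and 17.9%. P15 replicate 1 gave the lowest standing of both. miR-30a and miR-30d were both at a median place of 69.5, with ranges from 38 to 120 and from 47 to 121, and miR-30e was at 110.5, with a range from 61 to 161.

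**Figure D1:**
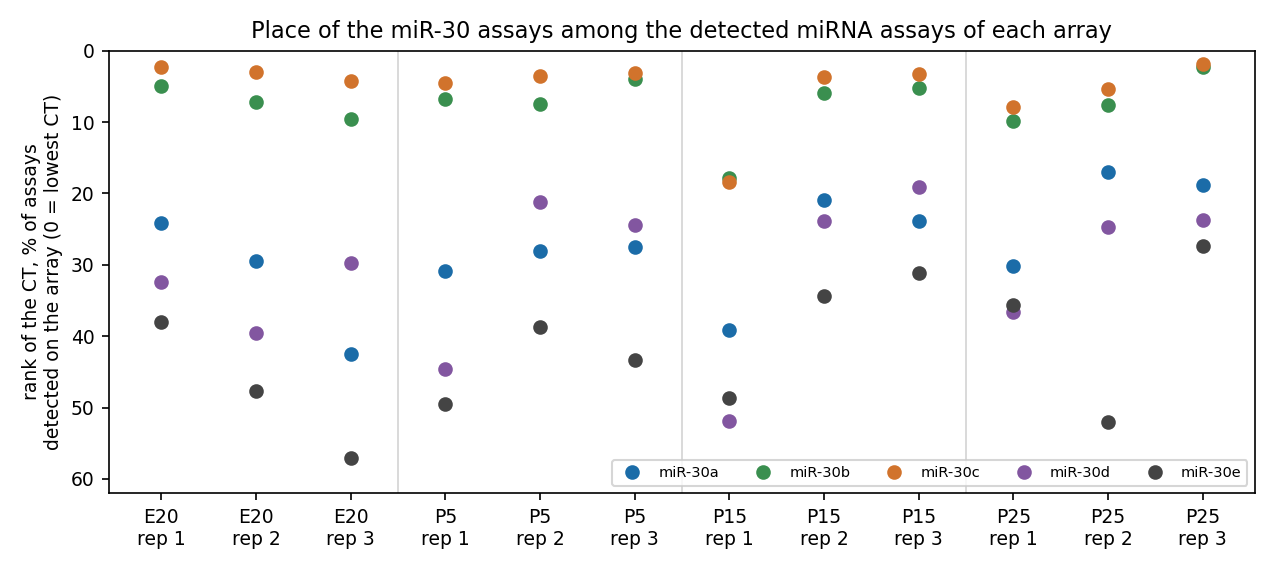
Rank of each miR-30 assay by CT among the miRNA assays detected on the same array, in percent of those assays (vertical axis, 0 at the top for the lowest CT), for the 12 arrays ordered by age. miR-30b and miR-30c lie in the first 18.4% on every array, and in P15 replicate 1 they, with miR-30d, stand at their lowest place.

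The order of the members was nearly fixed. miR-30b and miR-30c had the 2 lowest CT values of the family in 12 of 12 arrays, with miR-30c first in 11 and miR-30b first in 1, P15 replicate 1. miR-30e had the highest CT in 10 arrays and miR-30d in the other 2, P15 replicate 1 and P25 replicate 1. Between miR-30a and miR-30d the order changed from array to array, and their difference, -0.34 cycles for miR-30d minus miR-30a with an SD of 0.82 over the 12 arrays, lay within its spread. CT values of different assays also depend on their primers, so these steps are between assays and not between molecule numbers.

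To compare ages, the CT of each assay was taken from the median over all detected assays of its array, which gives a normalized value on the log2 scale, higher for more miRNA. The question was whether the family changed as acinar cells matured.

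All 5 miR-30 assays had a higher mean at P25 than at E20, by 0.78 to 1.55 on the log2 scale. None of the 5 differences passed the test with this reference, whereas miR-30a passed with some of the other references given below. The median change of the family from E20 to P25 was 0.88, against 0.15 for all 192 assays tested. In limma, with Benjamini-Hochberg adjustment over the 192 assays, 0 of the 5 members were called between E20 and P25. This comparison called 12% of all assays. An unadjusted p under 0.05 was reached by 0 of the 5 members and by 62 of the 192 assays. The measured values of the E20 and P25 samples overlapped for 5 of 5 members, while 39.1% of the 156 assays measured in all 6 samples did not overlap, 21.8% being higher at P25.

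miR-30a, the member with the largest difference, had normalized values of 2.40, 1.66 and 0.66 in E20 replicates 1, 2 and 3, and of 1.50, 1.79 and 1.64 at P5. It was at 0.84, 2.85 and 2.96 at P15 and at 2.15, 3.96 and 3.27 at P25. The E20 and P25 samples overlapped only through E20 replicate 1 and P25 replicate 1. With 3 samples an age, the means ± SD in order of age were 1.57 ± 0.88, 1.64 ± 0.15, 2.22 ± 1.19 and 3.13 ± 0.91. The fitted change from E20 to P25 was 1.55 (SE 0.80, adjusted p = 0.192, limma), a fold of 2.94 with a 95% interval from 0.897 to 9.61. An exact two-sided permutation test gave p = 0.2, where 3 samples against 3 cannot give less than 0.1.

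miR-30b, encoded beside miR-30d, was at 4.78, 3.84 and 3.64 in the E20 samples and at 4.30, 4.76 and 4.98 at P5. Its P15 values were 2.78, 5.42 and 6.50 and its P25 values 4.39, 5.27 and 6.36. Of the P25 samples, replicate 1 lay below the highest E20 sample and the other two lay above it. The E20 mean was 4.09 ± 0.60 (SD, n = 3), the P25 mean was 5.34 ± 0.99 (SD, n = 3), and the fitted change was 1.25 (SE 0.91, adjusted p = 0.373, limma; exact permutation p = 0.2).

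miR-30c, the member read from both loci on chromosomes 5 and 9, was at 5.47, 4.71 and 4.48 at E20 and at 4.69, 5.43 and 5.12 at P5. At P15 it was at 2.76, 6.04 and 7.01, the widest spread of the family within an age, and at P25 at 4.88, 6.04 and 6.39. Its E20 and P25 means were 4.89 ± 0.52 (SD, n = 3) and 5.77 ± 0.79 (SD, n = 3), with a fitted change of 0.88 (SE 0.95, adjusted p = 0.529, limma). P15 replicate 1 held its lowest value of all 12 samples and P15 replicate 3 its highest.

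miR-30d was at 1.71, 0.83 and 1.56 at E20, at 0.36, 2.61 and 2.01 at P5, at -0.02, 2.40 and 3.71 at P15 and at 1.52, 2.51 and 2.42 at P25. The means followed the order of age, from 1.37 ± 0.47 (SD, n = 3) to 2.15 ± 0.55 (SD, n = 3), but replicate 1 at P5 and at P15 lay below every E20 sample. Its fitted change from E20 to P25 was 0.78 (SE 0.93, adjusted p = 0.578, limma).

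miR-30e, the member of highest CT, was at 1.23, 0.28 and -0.59 at E20, at 0.08, 0.83 and 0.35 at P5, at 0.11, 1.40 and 2.09 at P15 and at 1.60, -0.09 and 1.85 at P25. P25 replicate 2 lay below E20 replicates 1 and 2, while the other P25 samples lay above all E20 samples. Its E20 mean was 0.31 ± 0.91 (SD, n = 3) and its P25 mean 1.12 ± 1.06 (SD, n = 3), a fitted change of 0.81 (SE 0.81, adjusted p = 0.500, limma). This value rested on single samples: it was 1.42 without P25 replicate 2 and 0.37 without E20 replicate 3, and neither fit called it. For miR-30a, miR-30b, miR-30c and miR-30d the change without 1 of the 12 samples ran from 1.10 to 2.04, from 0.74 to 1.73, from 0.57 to 1.33 and from 0.51 to 1.10, and the member count called was 0 in each of these fits. Of all assays, these fits called from 8 of 163 (without P25 replicate 2) to 38 of 186 (without P15 replicate 1). The lowest of these 4 members' changes came without E20 replicate 3 for miR-30a, without P25 replicate 3 for miR-30b and miR-30c and without E20 replicate 2 for miR-30d, and the highest without P25 replicate 1 for all 4. The changes were also smaller when a CT of 35 or more was taken as not detected: 0.82 for miR-30a, 0.52 for miR-30b, 0.15 for miR-30c, 0.05 for miR-30d and 0.08 for miR-30e, none called by limma. There 11 of the 119 assays tested were called, 1 of them higher at P25, and the median change of the 119 was -0.44.

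**Figure D2:**
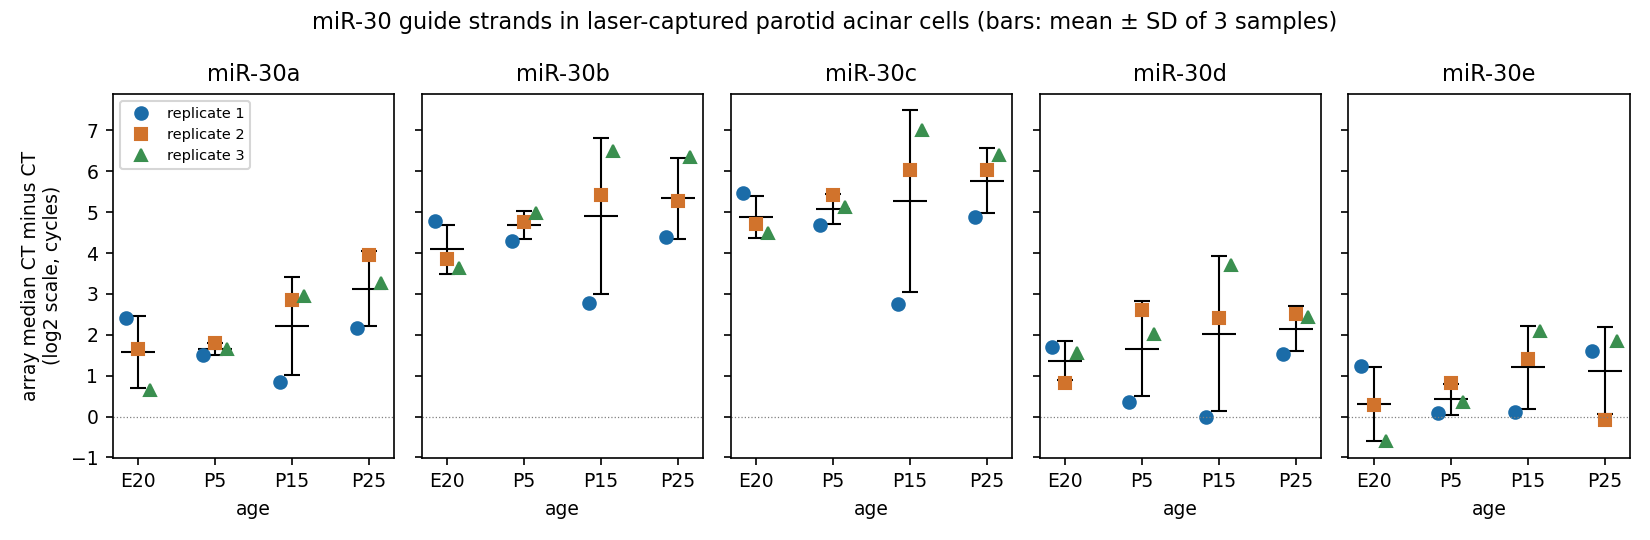
Normalized value (array median CT minus CT, log2 scale, in cycles) of each miR-30 assay in the 12 samples by age, with symbols for replicate numbers and bars for the mean ± SD of 3 samples. The samples of E20 and P25 overlap in every panel, and P15 replicate 1 lies lowest of the P15 samples in each.

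Across the 4 ages together, limma's F test called 0 of the 5 members (adjusted p from 0.505 to 0.896), where 7.81% of all assays were called. Its unadjusted p was under 0.05 for 0 of the 5 members and for 40 of the 192 assays. The linear trend over days from birth was positive for 5 of 5 members and called none (adjusted p from 0.157 to 0.536, limma). It called 14.1% of all assays. The trend had an unadjusted p under 0.05 for 0 of the 5 members and for 60 of the 192 assays. miR-30a came nearest, with an unadjusted p of 0.0519 in that limma fit. The quadratic term called 0 of 5 (adjusted p from 0.969 to 0.982, limma) and 0% of all assays. Unadjusted, it was under 0.05 for 0 of the 5 members and for 8 of the 192 assays. Over all 6 pairs of ages the 5 members gave 30 contrasts, of which 0 had an unadjusted p under 0.05 in limma, with adjusted p from 0.192 to 0.983. Of the 192 assays, from 12 (P5 to P15) to 62 (E20 to P25) had an unadjusted p under 0.05 in a pair. The share of all assays called was 3.12% between P5 and P25 and 0% in each of the other 4 pairs.

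The values at P15 depended on 1 array. The mean of the 5 members was 1.29 in P15 replicate 1, the lowest of the 12 arrays, and 4.46 in P15 replicate 3, the highest. With all samples the fitted change from E20 to P15 was 0.38 to 0.89 over the members, and without P15 replicate 1 it was 1.33 to 1.87 (adjusted p from 0.169 to 0.318, limma, 0 called). Without that array 5 of 186 assays were called between E20 and P15, and with it 0 of 192. From P15 to P25 the change was positive for 4 of 5 members with that array and for 1 of 5 without it.

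The array reference moves all assays together, and with it the count of members called. When the reference was the median of the 120 common miRNAs, in place of the median of whatever an array detected, the change of miR-30a from E20 to P25 was 1.79 (adjusted p = 0.0455, limma) and passed, as did 20.8% of all assays. The other 4 members were at 1.02 to 1.49 and did not pass. The median change of all 192 assays moved along, from 0.15 to 0.38. On that scale miR-30a was at -0.16, -0.29 and -1.35 in the E20 samples and at 0.26, 1.87 and 1.44 in the P25 samples. The groups no longer overlapped for miR-30a, miR-30b, miR-30c and miR-30d, each higher at P25 (exact permutation p = 0.1 for each, the smallest that 3 against 3 allows), where 44.9% of all assays did not overlap and 27.6% were higher at P25. miR-30e still overlapped, through P25 replicate 2 at -2.18. The linear trend of miR-30a also passed with this reference (adjusted p = 0.0294, limma), where 21.9% of all assays did. In fits with this reference that each left out 1 sample, the change of miR-30a from E20 to P25 was called in 2 of 12, those without P15 replicate 1 (23.7% of all assays called) and without P25 replicate 1 (16.7%), and its trend in 9 of 12. The share of all assays called by the trend in the 12 fits was 14.8% to 25.3%.

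All changes stayed positive with the other references and turned negative without one. With the median taken after imputation, the order in which the study's methods describe these steps, all 5 members were at 1.52 to 2.29. There miR-30a was called (adjusted p = 0.0167, limma, 24.5% of all assays called), as was its trend (24% of all assays called). With the small nuclear RNAs the 5 members were at 1.79 to 2.56 (adjusted p = 0.998, limma). Of the 192 assays, 0 were called with this reference and 1 had an unadjusted p under 0.05. With the CT values as deposited and no reference, the 5 changes were between -0.94 and -0.17, none called. There 26 of the 192 assays were called, 1 of them higher at P25. The median change of all assays was 0.88, 1.15 and -1.58 under these 3 settings in that order, and the 5 members lay above it in each.

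**Figure D3:**
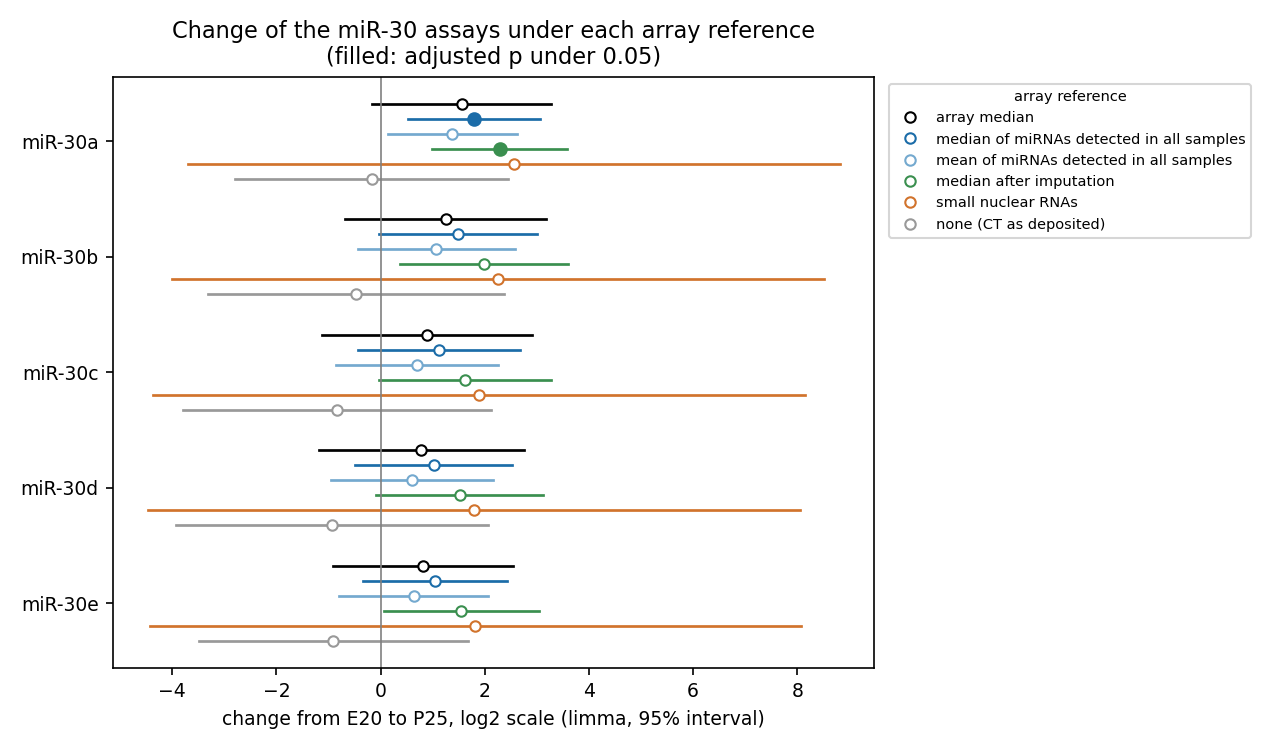
Change from E20 to P25 of each miR-30 assay (horizontal axis, log2 scale) from limma under 6 array references, with 95% intervals; filled points have an adjusted p under 0.05. All points except those with no reference lie above 0, and the filled points are those of miR-30a with the common-miRNA median and with the median after imputation.

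Differences between members within an array need no reference, and they address whether the family kept its internal ratios as the cells matured. By an exact permutation test of the F statistic over all 369600 assignments of the samples to ages, 0 of the 10 pairs of members had an unadjusted p under 0.05 (p from 0.294 to 0.968, each 0.968 after Benjamini-Hochberg adjustment over the 10 pairs). These p-values do not show that the ratios were constant. miR-30c minus miR-30b was 0.80 ± 0.09 cycles (SD, n = 3) at E20, 0.40 ± 0.27 at P5, 0.37 ± 0.34 at P15 and 0.43 ± 0.37 at P25, each over 3 samples. miR-30e minus miR-30a, whose printed sequences differ at 1 base, averaged -1.27 ± 0.11 at E20 and -2.01 ± 1.82 at P25, each with the SD of 3 samples. The wide P25 spread came from replicate 2, at -4.05.

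The SD of a difference over the 12 arrays, which counts both age and sample, was smallest for miR-30c minus miR-30b, 0.307 cycles, and largest for miR-30e minus miR-30d, 0.900 cycles. The median over the 10 pairs was 0.700 cycles. Over the 7140 pairs of the 120 assays detected in all samples the median SD was 1.67 cycles, and 10 of the 10 miR-30 pairs lay below the tenth percentile of these, 0.916 cycles. To compare assays of like CT, pairs were also restricted by CT. Over the 2415 pairs of the 70 assays with a mean CT within the range of the family, 27.9 to 32.4, the median SD was 1.37 cycles and the tenth percentile 0.757 cycles, which 5 of the 10 miR-30 pairs lay below. Spreads this narrow also occurred between members and assays outside the family, as given below. The pairs that share a locus did not all head this order: miR-30d minus miR-30b, from neighbouring genes on chromosome 7, had an SD of 0.560 cycles, above that of miR-30c minus miR-30b, whose genes lie on different chromosomes. Whether the miR-30b and miR-30c assays amplify each other's target was not tested.

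**Figure D4:**
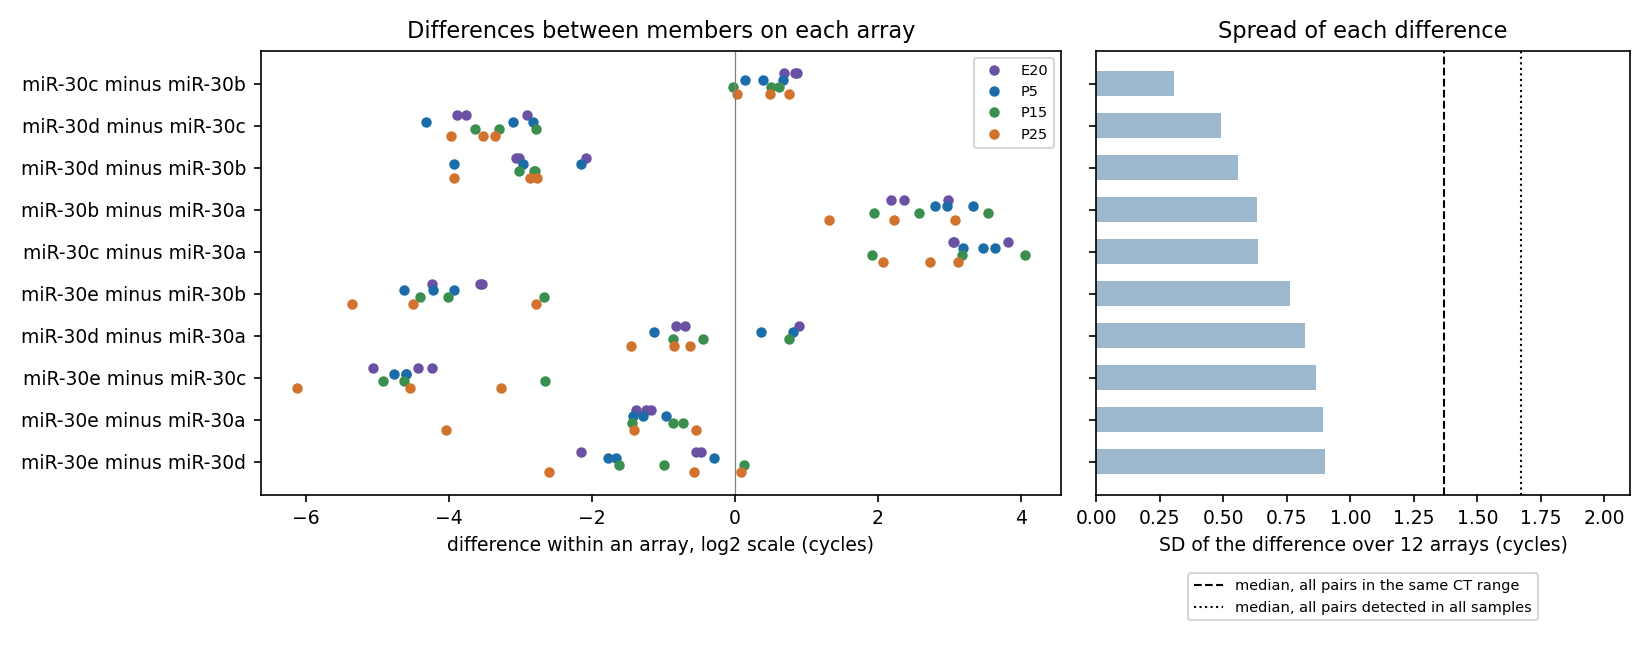
Left, the difference between members on each array (log2 scale, in cycles) for the 10 pairs, coloured by age; right, the SD of each difference over the 12 arrays as bars, with the median SD over all pairs of assays detected in all samples (dotted) and over those in the same CT range (dashed). All 10 bars end below both lines, and miR-30e minus miR-30a holds 1 P25 sample far from the rest.

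Over the 12 samples, the normalized values of the members had Pearson correlations between 0.542 for miR-30a with miR-30e and 0.960 for miR-30b with miR-30c. These points share an array and its reference, and with the common-miRNA reference the correlations were between 0.375 and 0.940.

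Among the 115 assays outside the family detected in all samples, the 5 most like the mean of the 5 members over the 12 samples were the rat assay of miR-200b (r = 0.931), miR-23b (r = 0.916), miR-26a (r = 0.899), the mouse assay of miR-200b (r = 0.873) and miR-24 (r = 0.873). miR-200b is an epithelial miRNA that represses Zeb transcription factors, and miR-23b and miR-24 are made from shared clusters. The median correlation over the 115 assays was 0.257, from -0.717 to 0.931. For the 5 assays in the order named, the median SD of the difference from the members was 0.525, 0.504, 0.573, 0.821 and 0.596 cycles. Between the members themselves it was 0.700 cycles, so narrow differences were not particular to the family. Without P5 replicate 1 and P15 replicate 1, at each of these ages the array of highest median CT, the 5 correlations were between 0.773 and 0.915, and all points share the array reference.

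Beside other miRNA families of the panel, the median change of miR-30 lay between those of let-7 and miR-26, but these families were not resolved from each other. Single let-7 assays ran from -0.42 to 3.02, the miR-26 assays from 0.91 to 1.08 and the miR-30 assays from 0.78 to 1.55. Of all assays, 12% were called. From E20 to P25 the median change was 0.72 for 9 let-7 assays (7 of 9 positive, 2 called higher), 0.99 for 2 miR-26 assays (both positive, 0 called) and 2.03 for 7 assays of the epithelial miR-200 family (7 of 7 positive, 0 called), against 0.88 for miR-30 (5 of 5 positive, 0 called). Ranked by change among the 192 assays, the members stood at 41 for miR-30a, 55 for miR-30b, 69 for miR-30c, 73 for miR-30e and 74 for miR-30d.

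miR-384-5p, which shares the seed printed above, had higher CT values than the miR-30 assays in most samples. It had a CT in 10 of 12 samples, with none in E20 replicate 3 and P25 replicate 1, and its normalized values ran from -5.64 in P5 replicate 2 to -0.02 in P25 replicate 2. In P25 replicate 2 it was level with miR-30e, at -0.09, and in the other 9 samples it lay below every miR-30 assay. Its fitted change, with the missing wells imputed, was 1.41 from E20 to P25 (SE 0.96, adjusted p = 0.325, limma) and 2.48 from P5 to P25 (adjusted p = 0.240, limma; unadjusted p = 0.0200).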

How the data were processed

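CT values of 12 samples were used, grouped by age from their labels. The authors made cDNA from 1 ng of total RNA, ran the Exiqon Mouse&Rat panel I with SYBR green and deposited each well's CT, a score that runs opposite to log2 amount, without imputation, normalization or pooling. A CT under 40 counted as detected, and the number of detected assays stands for depth; precision falls as CT rises. Of 4500 miRNA wells, 1478 (32.8%) gave no CT. Tests covered the 192 assays with a CT in 2 or more samples of each age. Each CT was subtracted from its array's median, missing wells were imputed from 10 nearest neighbors, and limma 3.58.1 in R 4.3.3 fitted the 4 age means over all 12 samples, with Benjamini-Hochberg adjustment within each comparison at 0.05. The array median, nearest neighbor imputation, limma with FDR and polynomials in time are those of the study's methods, which describe imputation before the subtraction of the median. Here the median was taken over detected wells, before imputation, and the other order was run as an alternative. Single assays and member differences were tested by exact permutation in Python 3.11.15 with scipy 1.17.1. On simulated tables, 85.25% of 40 assays changed by 4 on the log2 scale, of 192, were recovered between E20 and P25. The changes of the members were smaller, 0.78 to 1.55, so this share does not apply to them.

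The assays named were every miR-30 guide and passenger strand assay, other panel miRNAs with the same bases 2 to 8, and the 5 assays outside the family that correlated best with its mean. The members, the lists and the tests were chosen with earlier results of these data known. Alternatives covered the detection filter, missing wells, array reference, CT limit, statistics, replicate block and each sample left out in turn. The ages share replicate numbers, and no source used here says what a number stands for across ages.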

Additional observations from a re-analysis of the deposited data

How the results depend on the processing

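The count of miR-30 members called between E20 and P25, 0, became 1 (miR-30a) with the common-miRNA median as reference and 1 with the median taken after imputation. The count for the linear trend became 1 (miR-30a) under both; with the median after imputation its adjusted p was 0.0116 (limma), where 24% of all assays were called. Alternatives chosen after seeing the data left out each sample in turn with the first of these references, and both counts then ran from 0 to 1; without P25 replicate 2 the trend called was that of miR-30e (adjusted p = 0.0340, limma; 15.3% of all assays called) and not miR-30a. With no reference the changes from E20 to P25 turned to -0.17 for miR-30a, -0.47 for miR-30b, -0.84 for miR-30c, -0.94 for miR-30d and -0.91 for miR-30e, and the linear trends to -0.25, -0.81, -1.21, -1.28 and -1.07 in the same order; a reference moves all assays of an array together, and the cause of the higher CT at P25 was not tested. The count across the 4 ages and that over the other 5 pairs stayed 0 in 42 alternatives each, and the count of changed member differences stayed 0 in 16. Not all of these could move a count. Every member CT lay under 35, so the CT limits left the member differences as they were. The detection filter and the handling of missing wells left the changes of the members as they were, and moved only their adjusted p. With a CT limit of 35 the changes from E20 to P25 were 0.05 to 0.82 (adjusted p from 0.613 to 0.995, limma), where 11 of 119 assays were called. Same-numbered samples of P5, P15 and P25 deviated together over 120 assays (9 of 9 correlations over 0.1, from 0.126 to 0.563) and those with E20 did not (1 of 9, from -0.234 to 0.123). Differently numbered samples of P5, P15 and P25 reached 0.359, in P5 replicate 2 with P15 replicate 3. Those with E20 reached 0.264, in E20 replicate 2 with P5 replicate 1. At P5, P15 and P25 replicate 1 was the array of highest median CT (34.1, 34.8 and 34.2), and its part in these correlations was not tested. The numbers were not taken to pair the samples across E20. The replicate block nevertheless spanned all 12 samples, E20 included, and no block over the postnatal ages alone was fitted. With the block the member count was 0 in every comparison (miR-30a from E20 to P25, adjusted p = 0.185, limma). Of the 192 assays, that fit called 32 between E20 and P25, 11 between E20 and P15 and 9 between P5 and P25. It called 19 across the 4 ages and 40 by the linear trend. Averaging mouse and rat assays left the CT of each member as it was, since each had 1 assay, but moved the array median. The change of miR-30a from E20 to P25 was then 1.64 (adjusted p = 0.170, limma), with 0 members and 20 of 186 assays called. Strands of 1 hairpin were not compared, since no passenger assay was on the panel. With 3 samples an age, the 95% interval of the change from E20 to P25 ran from -1.18 to 2.75 for miR-30d and from -0.16 to 3.26 for miR-30a, so changes of such size were not resolved.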
